A study of Mus musculus with 3 samples.

Results

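The heat shock proteins and their cochaperones were examined in cultured mouse aortic endothelial cells that lack the serine/threonine kinase Pim1. Genes were taken by name: the HSP70, HSP110, HSP90 and small heat shock proteins, the mitochondrial and cytosolic chaperonins, the DnaJ (HSP40), Bag and Fkbp cochaperones, the heat shock factors and Stip1. Left out by name were Hspa5, Hsp90b1, Dnajb9 and Dnajc3, chaperones of the endoplasmic reticulum, Fkbp5, a stress hormone target, and Hspg2. Other genes of the secretory pathway, such as Fkbp11, stayed in. The array carried 93 genes taken in this way, measured by 174 distinct 60-base array features, out of 19754 named genes. Of these 93 genes, 83 could be tested, against 13458 genes tested in all. Among the 93, the array name Dnajc3a belonged to Dnajc3, a cochaperone of the endoplasmic reticulum, and Hspc171 belonged to Tmem208, which is no heat shock protein. Both were kept, since the names met the rule, and neither was called.

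Aortic cells were isolated from Pim1-/- mice and from wild-type mice, all on the FVB/N background, given in the labels as female and 12 weeks old. The cells were grown on gelatine in medium with 10% serum, and RNA was taken 24 hours after seeding, with no heat or other stress applied per the labels. Each of 3 two-colour arrays carried knockout RNA in Cy5 and wild-type RNA in Cy3, so each array gave 1 log2 ratio of knockout over wild type. Per the labels the 3 arrays were biological replicates, but not whether the wild-type RNA was pooled, so p-values measure the spread between these arrays. No dyes were swapped, so genotype and dye cannot be told apart for a single gene.

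The labels were checked against the data. Pim1 itself was lower on each array, with a mean log2 ratio of -1.04 (SD 0.10; limma adjusted p = 0.00296). Its feature was still well above background in the knockout on all 3 arrays, and the source of that signal was not tested. Xist, the RNA of the inactive X chromosome, stayed below the background limit in all knockout channels, at least 168-fold under the wild type. The Y-linked Eif2s3y was at least 28.1-fold, Ddx3y at least 12.1-fold and Kdm5d at least 4.68-fold higher in the knockout. These values go against the label that gives both donor groups as female. Sex therefore cannot be told apart from genotype, and no feature of the 93 genes lay on chromosome X or Y. Of 12 endothelial markers, Pecam1, Cdh5, Tie1 and Erg were not well above background on any array. All 8 mesothelial and epithelial markers were tested and 7 fell, against 11.4% of all genes, while Wt1 was not called, at 0.26. Of 9 tested fibroblast markers 7 rose, against 8.67% of all genes. The fibroblast collagen Col1a2 went the other way and fell, at -0.70 (limma adjusted p = 0.0125). Array 1 stood apart: across all features its log2 ratios correlated with those of arrays 2 and 3 at r = 0.681 and 0.699, against 0.905 between arrays 2 and 3. Over the 83 genes examined here those values were 0.447, 0.561 and 0.756, a description across genes, which are not independent.

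Heat shock proteins bind unfolded or partly folded proteins and hold, refold or pass them on. HSP70 and HSP90 work in ATP-driven cycles, which DnaJ proteins start by delivering clients, Bag proteins time by releasing nucleotide, and Stip1 and the large Fkbp proteins link to the next machine. Small heat shock proteins hold aggregating proteins without ATP, and chaperonins fold actin, tubulin and other clients inside a closed ring. In stressed cells heat shock factor 1 binds heat shock elements, repeats of the unit GAA in alternating orientation, and switches on many of these genes together. In blood vessels small heat shock proteins are best known in smooth muscle, and HSP90 is known as a partner of endothelial nitric oxide synthase.

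Most of these genes differed little between the genotypes. After loess normalisation the median log2 ratio of the 83 genes was 0.01, against -0.02 for all genes tested. Of the 83 genes, 73 (88%) lay within 1.5-fold, against 84% of all genes. A gene was called where the limma p-value, adjusted over all tested features, was under 0.05, and 11 of 83 were called (13.3%), against a background of 20.1% of all genes. Of the 11, 5 were higher in the knockout (6.02%, background 8.67%) and 6 were lower (7.23%, background 11.4%). Only Hspa12b and Hspb7 were called and changed at least 2-fold (2.41%, background 6.69%). With no filter on dim features 12 of 93 were called (12.9%), close to the background of 12.6%. Counted by array feature, 17 of 151 tested were called (11.3%, background 17.1%). The largest changes were falls of Hspa12b, Hspb7 and Cryab, and the largest called rises were those of Fkbp3, Fkbp4 and Dnaja1.

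**Figure D1:**
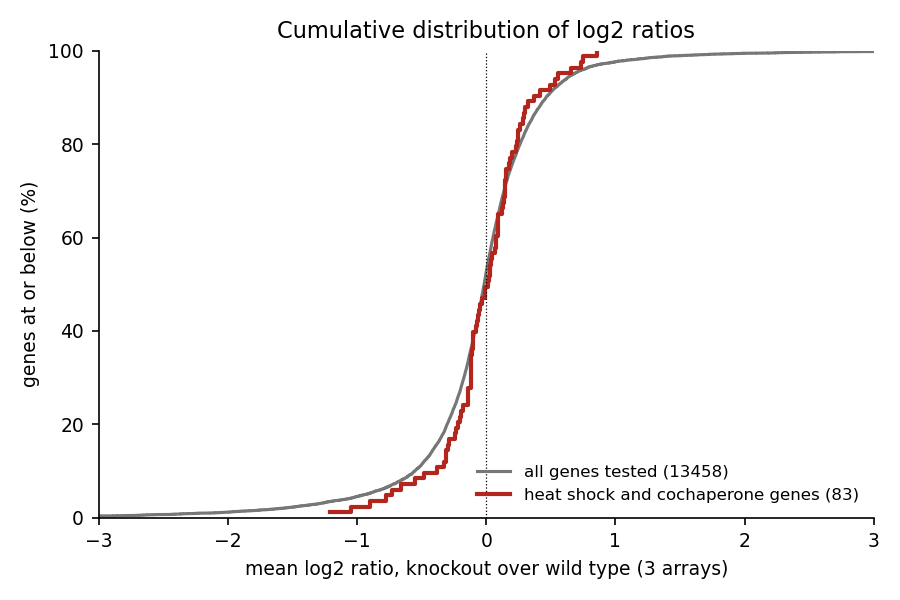
Cumulative share of genes, in percent (vertical axis), at or below each mean log2 ratio of knockout over wild type (horizontal axis, 3 arrays), for the 83 heat shock and cochaperone genes (red) and all 13458 genes tested (grey, cut off at the axis limits). The red line is the steeper: 1.2% of these genes, against 3.54% of all, lay at or below -1.2, and 100% against 97.2% lay at or below 0.9.

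The count depended on which arrays were used. Without array 1, 24 of these genes were called (29.3%), against 42.3% of all genes, and the 11 were among them. Without array 2 the called gene was Hspa12b alone (1.22%, background 5.43%). Without array 3 limma called none of the 83 (background 4.64%), and 16 had an unadjusted p under 0.05. The share of all genes under that unadjusted limit was not counted. Counts at an unadjusted p, here and below, therefore have no background beside them. With arrays centred on their median in place of loess, 8 genes were called (9.64%, background 13.9%), 5 higher and 3 lower. Over all genes that choice moved the share of calls that were higher from 43.1% to 55.6%. It also moved the median log2 ratio of the 83 genes from 0.01 to 0.19, and that of all genes from -0.02 to 0.08. The median went from 0.12 to 0.42 for the cytosolic chaperonin, from 0.12 to 0.48 for the mitochondrial chaperonin and from 0.20 to 0.59 for HSP90. That of the small heat shock proteins went from -0.29 to -0.28.

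**Figure D2:**
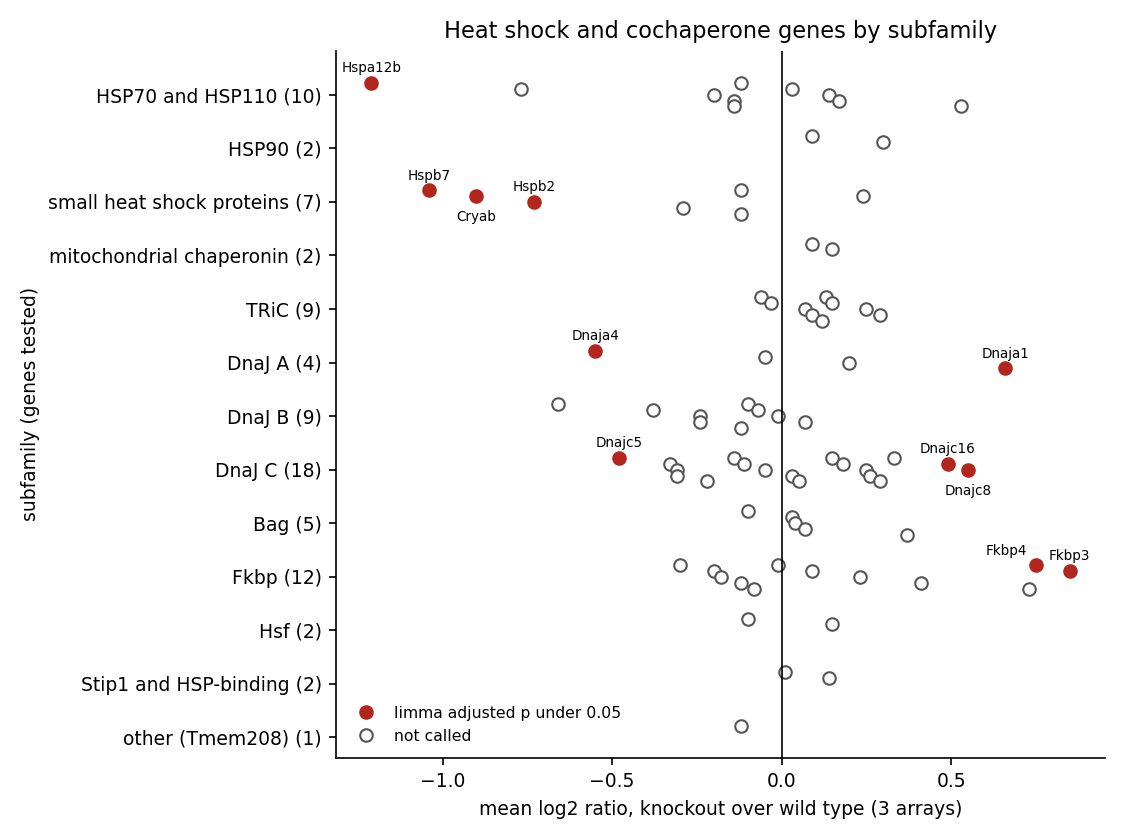
Mean log2 ratio of knockout over wild type over 3 arrays (horizontal axis) for each of the 83 tested genes, in rows by subfamily with the number of genes tested. Filled red points had a limma adjusted p under 0.05 and are named, from Hspa12b at -1.21 to Fkbp3 at 0.85; open points were not called.

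Of 8 small heat shock proteins on the array 7 were tested and 3 fell (42.9%, against 11.4% of all genes), with a median log2 ratio of -0.29 over the 7. With median centring 2 of the 3, Hspb7 and Cryab, were called. Hspb7, a small heat shock protein best known in heart and skeletal muscle, read -0.50, -1.36 and -1.27 on arrays 1, 2 and 3. All 3 arrays were lower in the knockout, and array 1 showed the least difference. The mean was -1.04 (SD 0.47, n = 3; limma adjusted p = 0.021), a 2.06-fold lower level. With the software's own ratio, also held in the deposited value table, the mean was -2.09, and with an offset of 0 it was -1.59, so the size of the fall of Hspb7 depended on the treatment of background. Its signal was low in both genotypes: the log2 level was 6.65 to 6.71 in the knockout and 7.21 to 8.02 in the wild type, and the groups did not overlap.

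Cryab, alpha B-crystallin, which holds desmin and other filament proteins in soluble form, was well above background in both genotypes. Its log2 level was 13.12, 13.33 and 13.27 in the knockout and 13.83, 14.14 and 14.46 in the wild type, with every knockout value below every wild-type value. The ratio was -0.70, -0.81 and -1.19, with a mean of -0.90 (SD 0.26, n = 3; limma adjusted p = 0.0103), or 1.87-fold lower. Hspb2, a partner of the myotonic dystrophy protein kinase, is encoded beside Cryab on chromosome 9, with their array features 5.23 kb apart. It read -1.04, -0.41 and -0.73, a mean of -0.73 (SD 0.31; limma adjusted p = 0.0254), and was not called with median centring (limma adjusted p = 0.0517).

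The other tested small heat shock proteins were not called. Hspb1 (HSP27), which binds actin and is induced by heat, read -0.06, 0.08 and -0.36, a mean of -0.12 with a 95% interval of -0.41 to 0.18. Its interval thus held no fall as large as that of Cryab. Hspb6, which acts in smooth muscle relaxation, had a mean of -0.29 (limma adjusted p = 0.11) and was below 0 on all 3 arrays. Hspb8, the partner of Bag3 in selective autophagy, had a mean of 0.24 (limma adjusted p = 0.186), above 0 on all 3. Hspb9 had a mean of -0.12 (limma adjusted p = 0.431), and Hspb3 was too dim to test. Differences between members were not tested.

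Each of the 3 called small heat shock genes had a second feature, and in each it gave the same sign but a smaller and uncalled ratio. The second feature of Cryab read a mean of -0.38 (limma adjusted p = 0.115), that of Hspb2 -0.14 (0.366) and that of Hspb7 -0.32 (0.149). The size of these falls therefore depended on which feature was read. Of 8 markers of smooth muscle and pericytes, where small heat shock proteins are abundant, 6 were tested, with a median log2 ratio of -0.54. Cnn1 and Cspg4 fell, at -1.45 and -2.57, Pdgfrb rose, at 0.77, and Tagln (-0.80), Acta2 (-0.29) and Myh11 (-0.04) were not called. Rgs5 was not well above background on any array. Summed levels, the log2 of summed intensity, are led by the brightest features of a list. The summed log2 level of the smooth muscle list was 15.72 to 15.80 in the knockout and 15.68 to 15.98 in the wild type. That of the mesothelial and epithelial list was 12.72 to 12.82 in the knockout and 16.15 to 16.53 in the wild type, and the part of either list in the falls of these genes was not tested. In bulk RNA, fewer cells of a type and less RNA per cell cannot be told apart.

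In the HSP70 and HSP110 group, which provides the ATP-driven core of refolding, 10 of 11 genes were tested. Of these, 1 fell (10%, against 11.4% of all genes). Hspa12b, a distant HSP70 relative known for its expression in endothelium, showed the largest change of all 83 genes. Its log2 level was 8.59, 8.90 and 9.08 in the knockout and 10.26, 9.86 and 10.07 in the wild type. All 3 knockout values lay below all 3 wild-type values, and array 1 had the widest gap. The ratios were -1.67, -0.96 and -1.0, and the mean was -1.21 (SD 0.40, n = 3; limma adjusted p = 0.00965), a 2.31-fold lower level read by 1 feature. Among 5 tested endothelial markers, Eng and Egfl7 rose, by 2.51 and 1.42 on the log2 scale (limma adjusted p = 0.000441 and 0.00217), and Kdr, Flt1 and Esam were not called. The means of those 3 were -0.23, 0.27 and -0.17. The summed log2 level of the 12 endothelial markers was 13.01 to 13.43 in the knockout and 12.02 to 12.24 in the wild type. That sum is led by its brightest features and takes in 4 markers not well above background on any array. It therefore does not measure endothelial RNA as a whole. The paralogue Hspa12a was too dim to test.

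The array features behind the largest falls are shown by their first 30 of 60 bases, so that they can be placed on a transcript. The Hspa12b feature lay at chr2:130837258-130837317, that of Hspb7 at chr4:140696516-140696575, that of Cryab at chr9:50508565-50508624 and that of Hspb2 at chr9:50503336-50503395, in the mm8 coordinates of the array files. Exons and untranslated regions were not assigned, since no annotation of that build was used here.
Hspa12b: gtgggggtttccagctctgccacatatcag
Hspb7: ggcctaggtagactgcctcagggaagccag
Cryab: ggatcccagccgatgtggatcctctcacca
Hspb2: tggtccacagtgtatggtttggtcccttga

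The remaining falls were in DnaJ genes. Dnaja4, a heat-inducible HSP70 cochaperone linked to cholesterol synthesis, read -0.50, -0.56 and -0.59, a mean of -0.55 (SD 0.04, n = 3; limma adjusted p = 0.0165). Its second feature had a mean of -0.10 (limma adjusted p = 0.542). Dnajc5, the cysteine string protein, which guards the proteins of vesicle release, read -0.49, -0.45 and -0.49. The mean was -0.48 (SD 0.02; limma adjusted p = 0.0232), with 1 of its other features at -0.19 and 1 at 0.05. Dnajc5 was the only called gene with several tested features whose features differed in sign. Neither Dnaja4 nor Dnajc5 was called with median centring.

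**Figure D3:**
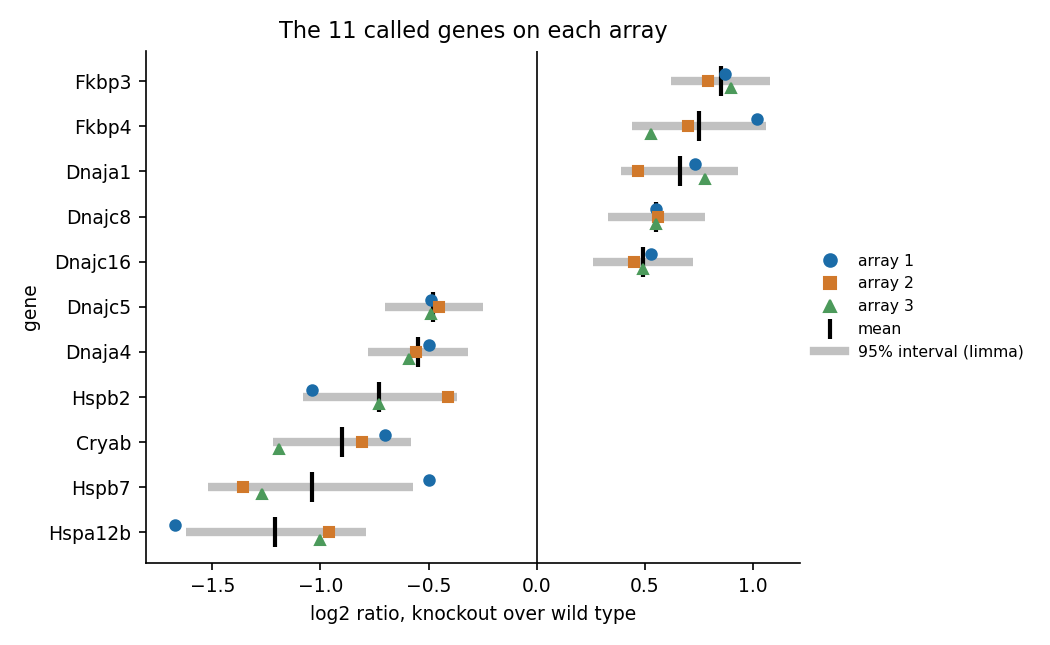
Log2 ratio of knockout over wild type (horizontal axis) for the 11 called genes on array 1 (circle), array 2 (square) and array 3 (triangle), with the mean (bar) and limma's 95% interval (grey, not adjusted for the number of genes). Each of the 11 genes had the same sign on all 3 arrays; array 1 was the lowest for Hspa12b (-1.67) and the highest for Hspb7 (-0.50) among the falls.

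The 5 called rises were among the Fkbp and DnaJ cochaperones. Fkbp proteins are prolyl isomerases that bind the drug FK506, and 12 of 13 were tested. Of these, 2 rose and none fell (16.7% called, against 20.1% of all genes, 8.67% higher and 11.4% lower), with a median of 0.04. Fkbp3, a nuclear member, had log2 levels of 15.41, 15.44 and 15.31 in the knockout and 14.55, 14.64 and 14.41 in the wild type. The ratios of 0.87, 0.79 and 0.90 were alike on the 3 arrays. The mean of 0.85 (SD 0.06, n = 3; limma adjusted p = 0.00448), or 1.81-fold higher, had the smallest adjusted p of the 83 genes. Its second feature had a mean of 0.36 (limma adjusted p = 0.0518).

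Fkbp4 (FKBP52), an HSP90 cochaperone of steroid receptor complexes, read 1.02, 0.70 and 0.53. All 3 arrays were higher in the knockout, array 1 the most. The mean was 0.75 (SD 0.25, n = 3; limma adjusted p = 0.0167), or 1.68-fold, and its second feature, elsewhere in the gene, gave the same mean of 0.75 (limma adjusted p = 0.015). Fkbp11, of the secretory pathway, had a mean nearly as large, 0.73, but read 1.37, 0.69 and 0.14 and was not called (limma adjusted p = 0.0908). Its second feature had a mean of 0.12, and without array 1 the gene was called higher, at 0.42. Fkbp15 read 0.20, 0.34 and 0.69, a mean of 0.41 (limma adjusted p = 0.082), and its other 4 tested features had means of 0.01 to 0.16. Fkbp15 was called higher, at 0.52, without array 1 and with array weights. Fkbp1a (FKBP12), the main target of FK506 and rapamycin, had a mean of -0.18 (limma adjusted p = 0.268).

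Dnaja1, a major cytosolic DnaJ partner of HSP70, was the DnaJ gene with the largest rise. Its log2 level was 13.75, 14.05 and 14.25 in the knockout and 13.02, 13.58 and 13.46 in the wild type. The knockout was higher on each array, and all knockout values lay above all wild-type values. The ratios were 0.73, 0.47 and 0.78, a mean of 0.66 (SD 0.17, n = 3; limma adjusted p = 0.0156), or 1.58-fold. A second feature was also called, at a mean of 0.45 (limma adjusted p = 0.0369), and the other was not, at 0.37 (limma adjusted p = 0.115).

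Dnajc8, a DnaJ protein associated with the spliceosome, read 0.55, 0.56 and 0.55. The mean was 0.55 (SD 0.00; limma adjusted p = 0.0155), and a second feature gave 0.52 (limma adjusted p = 0.0194). Those 2 features overlap in sequence, from 131825483 and from 131825503 on chromosome 4 (mm8), so the second is no independent reading. Dnajc16 read 0.53, 0.45 and 0.49, a mean of 0.49 (SD 0.04; limma adjusted p = 0.0222), and its other 3 features had uncalled means of 0.19 to 0.43. With median centring Dnajc16 was not called (limma adjusted p = 0.0678). The features of the main rises began as follows (first 30 of 60 bases), at chr12:65981069-65981128 for Fkbp3, chr6:128398801-128398860 for Fkbp4 and chr4:40918944-40920399 for Dnaja1, a span wider than its 60 bases.
Fkbp3: tttcctacagctatgtaaagtattccagag
Fkbp4: gctagaatacgagtctagcttctccggtga
Dnaja1: tgctgtttttacaatgcgaggagaagacct

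The other DnaJ genes were not called. In all, of 18 tested DnaJ C genes, 2 rose and 1 fell (16.7% called, against 20.1% of all genes), with a median of 0.04. Of 4 DnaJ A genes 1 rose and 1 fell (50%, against 20.1% of all genes), a share that rests on few genes. None of the 9 tested DnaJ B genes was called by limma, against 20.1% of all genes. Of those 9, 3 had an unadjusted p under 0.05, and their median was -0.12. Dnajb1 (HSP40), the standard heat-inducible partner of HSP70, read -0.02, -0.23 and -0.11, a mean of -0.12 with a 95% interval of -0.36 to 0.12. Dnajb4 had the largest DnaJ B ratio, with -1.28, -0.42 and -0.28 on the 3 arrays. Its mean of -0.66 was not called (SD 0.54; limma adjusted p = 0.0907). Without array 1 Dnajb4 was called lower, and with array weights Dnajb11 was.

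Hspa1a, which encodes the main inducible HSP70, was not called, nor were Hsph1, Hspa8 and Bag3, whereas the heat-inducible Cryab, Dnaja1 and Dnaja4 were called, as given above. The log2 level of Hspa1a was 9.65, 10.75 and 10.99 in the knockout and 11.28, 11.09 and 11.34 in the wild type, so the groups did not overlap, and array 1 was far the lowest. The ratios were -1.63, -0.34 and -0.36, a mean of -0.77 (SD 0.74, n = 3) that was not called (limma adjusted p = 0.117). Its other 3 features were also below 0 on every array, with means of -0.81, -0.42 and -0.23, and none was called; 2 of the 4 features overlap in sequence. Without array 1 Hspa1a was called lower. Hspa1b, a near-identical copy, had no feature under its own name, so Hspa1a signal may hold that of both, which was not tested. In the RefSeq promoter windows described next 247 of 250 bases of Hspa1a and Hspa1b were the same. Those windows lie before the transcript start and do not show how alike the transcripts are.

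Hsph1 (HSP110), which recharges HSP70 with ATP, read 1.04, 0.15 and 0.41, a mean of 0.53 (SD 0.46; limma adjusted p = 0.111). Array 1 was again the outermost value. Hspa8, the constitutive HSP70, read 0.14, -0.28 and -0.27, with a mean of -0.14 and a 95% interval of -0.45 to 0.17. Bag3, which couples HSP70 to selective autophagy, read -0.14, 0.03 and 0.32, with a mean of 0.07 and an interval of -0.23 to 0.37. The signs of the Hspa8 and Dnajb1 means turned with median centring, to 0.23 and 0.16, and both stayed uncalled.

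HSP90, which matures kinases and steroid receptors, was not called in either cytosolic form. Hsp90aa1, the inducible form, read 0.45, -0.34 and 0.17, a mean of 0.09 (limma adjusted p = 0.753). The constitutive Hsp90ab1 was higher on each array, at 0.36, 0.20 and 0.33, with a mean of 0.30 (SD 0.09; limma adjusted p = 0.0925). Its second feature had a mean of -0.00 (limma adjusted p = 0.99). By its brightest feature the gene was called higher with median centring and with array weights. Stip1 (HOP), which passes clients from HSP70 to HSP90, read 0.44, 0.03 and -0.04. Its mean of 0.14 was not called (limma adjusted p = 0.506).

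The heat shock factors, which switch these genes on, were measured at small ratios. Hsf1, the main stress sensor, read 0.21, 0.24 and -0.00, a mean of 0.15 with a 95% interval of -0.10 to 0.40. Its other 2 features had means of -0.23 and -0.18 (limma adjusted p = 0.222 and 0.403), and the mean over its features was -0.09, so the direction for Hsf1 depended on the feature. Hsf2 read -0.09, -0.19 and -0.02, a mean of -0.10 with an interval of -0.34 to 0.14. Hsf4 was too dim to test. Of the 5 tested Bag genes limma called 0, against 20.1% of all genes, and 1 had an unadjusted p under 0.05. That was Bag2, a brake on the ubiquitin ligase CHIP, at 0.57, 0.37 and 0.16 (limma adjusted p = 0.0877).

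**Figure D4:**
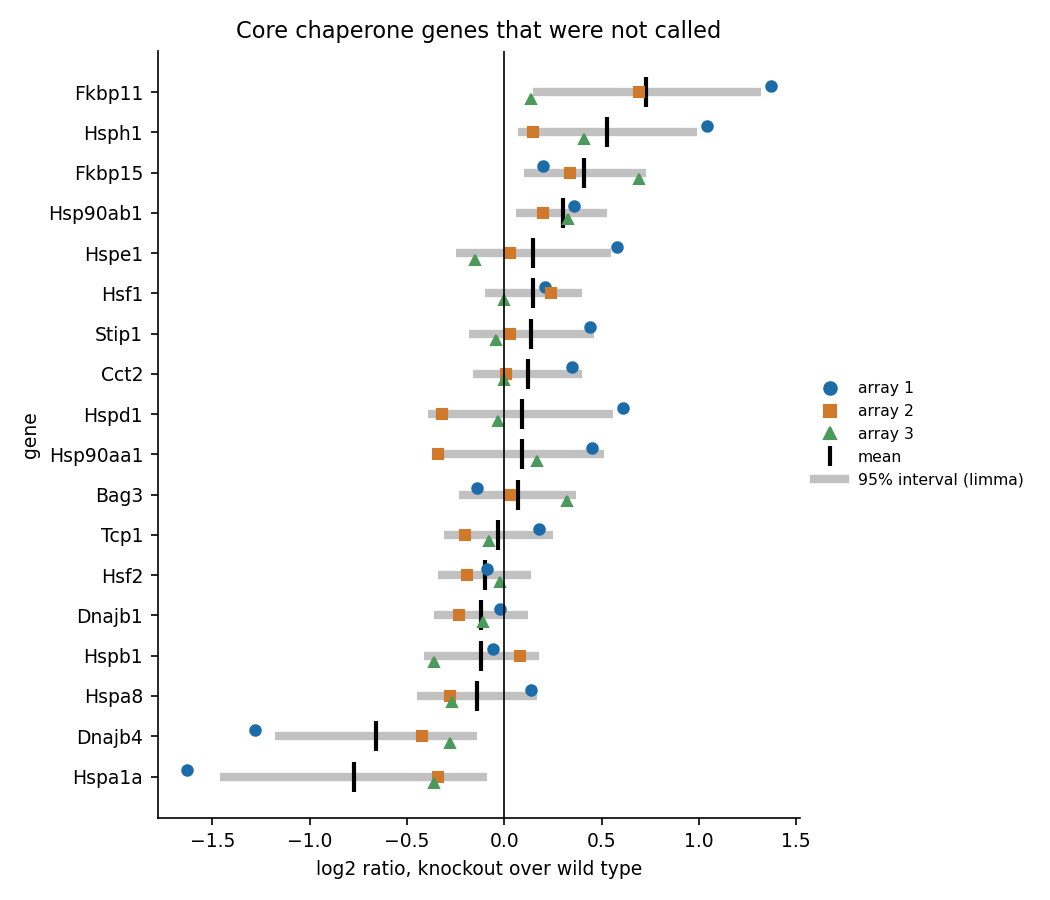
Log2 ratio of knockout over wild type (horizontal axis) for 18 uncalled genes, the core chaperones and the largest uncalled ratios, on array 1 (circle), array 2 (square) and array 3 (triangle), with the mean (bar) and limma's 95% interval (grey, not adjusted for the number of genes). Array 1 lies outside the interval for Fkbp11 (1.37), Hsph1 (1.04), Hspd1 (0.61), Hspe1 (0.58), Dnajb4 (-1.28) and Hspa1a (-1.63).

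On array 1 the chaperonin genes lay higher than on the other arrays. TRiC, the cytosolic ring that folds actin and tubulin, is built of Tcp1 and the Cct subunits. All 9 of its tested genes lay above 0 on array 1, 4 did on array 2 and 3 on array 3, against 45.9%, 50% and 47.4% of all genes on those arrays. The median of the 9 genes was 0.47, -0.02 and -0.03 on the 3 arrays. Of the 9, limma called 0, against 20.1% of all genes, with 0 at an unadjusted p under 0.05. Cct3 had the largest mean, 0.29, from 0.72, 0.15 and -0.00 (limma adjusted p = 0.287). Tcp1 read 0.18, -0.20 and -0.08, and Cct2 read 0.35, 0.01 and 0.00. These values are those of the brightest features. The second features of Cct2, Cct3, Cct4 and Tcp1 read 0.09, 0.37, 0.08 and -0.09 on array 1. Their means were -0.10, 0.11, -0.12 and 0.13, so the sign for Cct2, Cct4 and Tcp1 depended on the feature. With median centring the mean of Tcp1 was 0.26 and still uncalled.

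The mitochondrial chaperonin also read highest on array 1. Hspd1 (HSP60) read 0.61, -0.32 and -0.03, a mean of 0.09 (limma adjusted p = 0.802), and its lid Hspe1 (HSP10) read 0.58, 0.03 and -0.15, a mean of 0.15 (limma adjusted p = 0.575). Neither gene kept 1 sign on the 3 arrays. Over all 83 genes the spread of log2 ratios was also widest on array 1, with an SD across genes of 0.54, against 0.37 and 0.38. For all genes tested those SDs were 0.68, 0.66 and 0.61. What set array 1 apart was not tested.

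**Figure D5:**
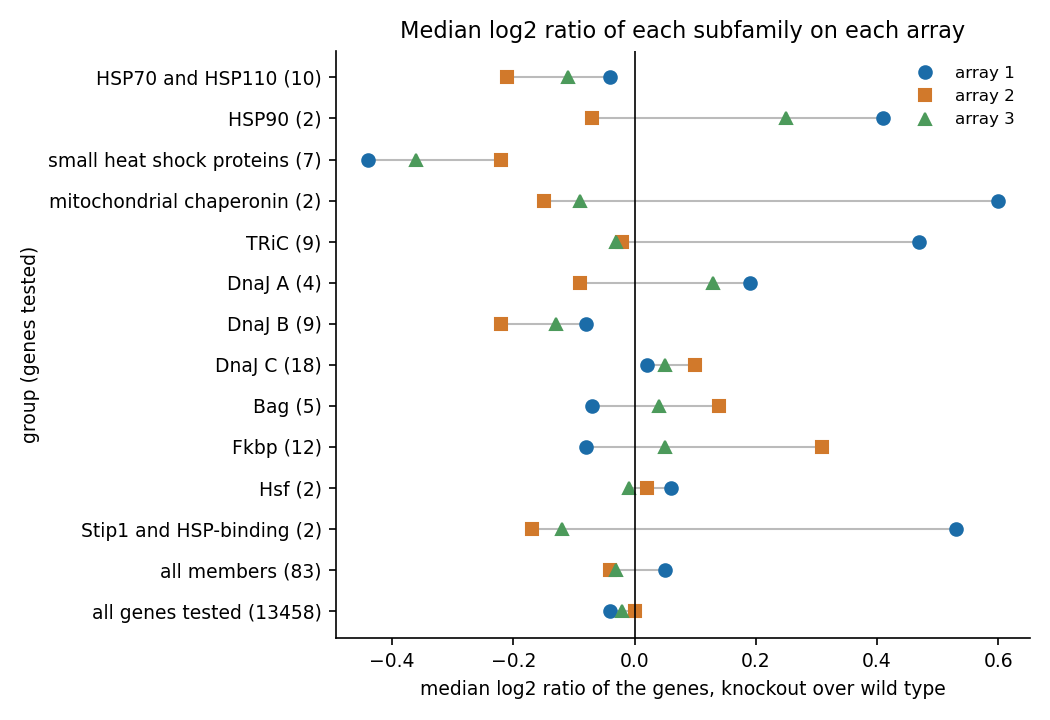
Median log2 ratio of knockout over wild type (horizontal axis) of each subfamily on array 1 (circle), array 2 (square) and array 3 (triangle), with the number of genes tested. Array 1 sits apart for TRiC (0.47), the mitochondrial chaperonin (0.60) and the pair of Stip1 and Hspbap1 (0.53), while the medians of all genes tested lie between -0.04 and 0.00.

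Heat shock elements were looked for in the 250 bases before each RefSeq transcript start (GRCm38.p6), which were found for 75 of the 93 genes. Searched were paired units, GAANNTTC or TTCNNGAA, and runs of 3 units, GAANNTTCNNGAA or TTCNNGAANNTTC, on both strands; each run contains the pairs. A pair was present in 16 of the 75 genes (21.3%), against 14.5% of 27025 genes with such a window, and a run of 3 units in 3 genes (4%), against 0.514%. By call, a pair was held by 2 of 5 genes that rose, Dnaja1 and Fkbp4, and by 12 of 59 that were not called (20.3%). Among the 3 genes that fell and had a window, 1 held a pair. That was Dnaja4, with 2 pairs in the same window and none in its other window. The genes with a run of 3 units were Hspd1, Hspe1 and Dnajb6, and none of them was called (median log2 ratio 0.09). Hspd1 and Hspe1 share a promoter, so the same site was counted for both genes in these shares.

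The windows of the risers Dnaja1 and Fkbp4 are set beside that of the uncalled Hspa1a, whose induction by heat is the textbook case, with the matching units in capitals. For Hsph1 and for the divergent promoter that Hspd1 and Hspe1 share, 30 bases around the match are given. Windows run 5′ to 3′ along the gene, and along the plus strand for the shared promoter. They lie at chr4:40722218-40722467 (plus strand) for Dnaja1, chr6:128438657-128438906 (minus) for Fkbp4, chr17:34972157-34972406 (minus) for Hspa1a, chr5:149636351-149636380 (minus) for Hsph1 and chr1:55088055-55088084 for the shared promoter. The first base of the match lay 124 bases before the start in Dnaja1, 151 in Fkbp4, 104 in Hspa1a and 33 in Hsph1. Other RefSeq starts of Dnaja1 had no match in their windows.
Dnaja1: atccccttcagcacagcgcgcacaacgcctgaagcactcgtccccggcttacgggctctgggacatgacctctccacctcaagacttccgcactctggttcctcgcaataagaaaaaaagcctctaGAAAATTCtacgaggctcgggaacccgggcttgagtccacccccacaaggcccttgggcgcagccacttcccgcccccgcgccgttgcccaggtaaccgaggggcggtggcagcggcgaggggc
Fkbp4: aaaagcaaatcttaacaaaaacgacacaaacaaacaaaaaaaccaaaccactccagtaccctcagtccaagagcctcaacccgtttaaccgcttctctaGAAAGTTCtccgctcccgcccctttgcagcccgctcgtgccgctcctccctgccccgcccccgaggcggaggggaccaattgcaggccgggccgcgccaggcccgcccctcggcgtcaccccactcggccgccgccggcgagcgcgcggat
Hspa1a: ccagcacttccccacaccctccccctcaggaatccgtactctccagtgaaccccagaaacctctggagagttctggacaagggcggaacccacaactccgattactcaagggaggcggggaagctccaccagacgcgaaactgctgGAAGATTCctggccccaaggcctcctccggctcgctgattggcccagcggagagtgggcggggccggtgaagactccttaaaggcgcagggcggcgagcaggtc
Hsph1: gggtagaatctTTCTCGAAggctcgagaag
Hspd1 and Hspe1: tccgTTCTAGAACCTTCCGGAAggccccgc
A match is a run of letters and not a measured binding site. Dnaja1 and Fkbp4, at 0.66 and 0.75, rose with 1 pair each, while Hspa1a, also with 1 pair, had a mean of -0.77. Dnaja4, with 2 pairs, fell, at -0.55. Hspd1 and Hspe1, with 4 alternating units in a row, had means of 0.09 and 0.15.

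Genes with several features allowed a check of the readings. Of 46 such genes, 30 had all features of 1 sign, the median spread between features was 0.21 and the largest was 0.79, in Dnajc3. Of 10 called genes with several features, 9 had features of the same sign and 3, Dnaja1, Dnajc8 and Fkbp4, had a second called feature. Conversely 3 genes that were not called by their brightest feature had another that was. These were Hspa4, at -0.48 (limma adjusted p = 0.0242), Hspa4l, at -0.67 (0.0114), both HSP110 relatives, and Dnajc3, at 0.57 (0.037). Across the 3 arrays, 43 of the 83 genes (51.8%) kept 1 sign, against 54% of all genes.

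Of the tested genes, 4 lie on chromosome 17, which also carries Pim1. Hspa1a and Hspa1l lay 5.36 and 5.37 Mb from Pim1, Hsp90ab1 15.8 Mb and Tcp1 16.5 Mb, and none of the 4 was called. Hspa1l, a testis-enriched HSP70, was well above background in the wild type on 3 arrays and in the knockout on none, with mean log2 levels of 6.44 and 6.31 and no call (limma adjusted p = 0.439). Dnajb13 was well above background in the wild type on 2 arrays and in the knockout on none, at 6.33 and 6.32. No fold is given for either. Dnajb3, Dnajb7, Dnajb8, Dnajc5b, Dnajc5g, Dnajc6, Fkbp6, Hsf4, Hspa12a and Hspb3 were the 10 genes too dim to test.

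The wider chaperone network was read through 54 further genes, which include Dnajc3. Of these, 4 rose and 2 fell (11.1%, against the background of 20.1%), with a median of -0.03. Among chaperones of the endoplasmic reticulum 2 of 12 rose: Calr (calreticulin), a calcium-binding lectin chaperone, at 0.79, 0.34 and 0.59 (mean 0.58, limma adjusted p = 0.0304), and P4hb (protein disulfide isomerase) at a mean of 0.45 (0.0288). Hspa5 (BiP), their central HSP70, had values on 2 arrays only, 0.18 and 0.22, with a mean of 0.20. Hsp90b1 (GRP94) had a mean of 0.16, and neither was called. Clpb, a mitochondrial disaggregase, rose by 0.79, 0.80 and 0.70, a mean of 0.76 (SD 0.06; limma adjusted p = 0.00648), and was the only 1 of 8 mitochondrial genes called.

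Hsbp1, which binds heat shock factor 1 and holds it back, fell on each array, at -1.05, -0.80 and -0.75. Its mean was -0.87 (SD 0.16; limma adjusted p = 0.00666), or 1.83-fold lower. Of 19 HSP90 and HSP70 partners, Ttc4 rose, by a mean of 0.42 (limma adjusted p = 0.0432), and the others, Ahsa1, Cdc37, Ptges3 and Stub1 among them, were not called. Pdcl3, a regulator of TRiC, fell by a mean of 0.55 (limma adjusted p = 0.0478). Of 6 prefoldin genes limma called 0, against 20.1% of all genes, with 2 at an unadjusted p under 0.05. Each of the 6 calls was lost under some alternative. Median centring ended those of Hsbp1 (limma adjusted p = 0.0516), Ttc4 (0.0783) and Pdcl3 (0.225), and the software's own ratio those of Calr (0.0644), P4hb (0.0944), Ttc4 (0.103) and Pdcl3 (0.0875). With the mean of a gene's features Clpb (0.0551), Hsbp1 (0.0533), Calr (0.0571) and Pdcl3 (0.0676) were not called.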

How the data were processed

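Members and lists were chosen with earlier results of these data known. Per the submitters' processing notes the deposited scanner files came from Agilent Feature Extraction 9.5.3.1. They held spot and background intensity in both channels and the software's log10 ratio. The deposited value table held the same log10 ratio (largest difference 0). From mean intensities, background was corrected with normexp (offset 50) and ratios normalised within arrays by loess, with control and flagged spots at weight 0. Flagged spots were dropped and repeated spots averaged, giving 41174 features. The offset pulls dim ratios towards 0. Tested were the 25076 features that the software marked above background in the same channel on 2 or more arrays. The mean log2 ratio was tested against 0 with limma 3.58.1 (lmFit, eBayes; R 4.3.3), with Benjamini-Hochberg adjustment over all tested features. A gene took its brightest tested feature. Levels are log2 intensities after loess and Aquantile and are not comparable between features. Bounds used the lowest level well above background. The pipeline was tested on simulated data. Named were all called genes, 17 measured core chaperones, the 5 largest uncalled ratios, up to 6 called network genes and label checks; others named were chosen after their values were seen. Names came from RefSeq (GRCm38.p6); 8058 features had none.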

Additional observations from a re-analysis of the deposited data

How the results depend on the processing

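Counts were recomputed under 17 alternatives. Of the 11 called genes none kept its call under every one; no call changed sign, and 6 lost it only without an array or at the stricter threshold. Leaving out 1 array moved the count of genes called higher from 5 to between 0 and 11, of those called lower from 6 to between 0 and 13, of all genes called from 2707 to between 617 and 5569, and of the other network genes from 6 to between 0 and 17. Where limma called 0 network genes, without array 2 or 3, 7 and 6 had an unadjusted p under 0.05; of genes higher, 7 had in both. An adjusted p under 0.01 left 1 gene higher, 1 lower, 960 of all genes and 2 network genes. Array weights gave 8 genes higher, 4522 of all genes and 13 network genes. Median centring gave 3 genes lower and 3 network genes. An offset of 0 gave 3 network genes, and 2 each were left with the deposited value table, with the software's log ratio and with the mean of a gene's features. With the software's ratio Dnajc5 and Dnajc8 lost their calls and the dim Hspa1l and Dnajb13 gained one. Leaving out Dnajc3 and Tmem208, chosen after seeing the data, changed neither count. The causes were not tested beyond the fewer arrays. Each array is 1 ratio of both genotypes, so the test of the mean ratio against 0 already compared the genotypes within arrays. No further pairing was possible, since there is 1 group of arrays. Signal over background limits the 10 genes that were too dim, and 3 arrays limit all tests.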
